A study of Rattus norvegicus with 11 samples.

Results

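The genes described here are 10 genes of the endothelial barrier and its tight junctions in the rat striatum: Cldn5, Ocln, Tjp1, Cdh5, Pecam1, Abcb1a, Slc2a1, Mfsd2a, Plvap and Cav1. They were matched by gene symbol, and all 10 were found once each among the 30560 genes of the count table and passed the filter on low counts. RNA was sequenced from 11 adult male Sprague-Dawley rats on day 3, with 1 library per rat. The 3 IC rats (common hemorrhage) had received 0.2 U of collagenase VII-S in 1.0 µL of saline in the right striatum, and the 3 IS rats (severe hemorrhage) 0.6 U in 3.0 µL. The 3 IS-HA rats had received the IS dose and had 150 µL of hematoma, about 75% of it, aspirated at 6 h under a second isoflurane anesthesia. The 2 Normal rats had no collagenase injection and no aspiration, and no group analysed here received saline alone, so that injection and hemorrhage cannot be told apart here. Ipsilateral striatum was taken from the injected rats and the corresponding region from the Normal rats.

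Brain capillaries are lined by endothelial cells that are sealed to each other, carry few vesicles across the cell and hold transporters that decide what enters the tissue. Tight junctions close the cleft between neighboring cells, adherens junctions hold the cells together, and caveolae are membrane pits that can ferry plasma proteins through the cell. Collagenase digests the basal lamina under these cells and so causes bleeding. In bulk tissue, fewer endothelial cells and less RNA per cell cannot be told apart.

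The labelled tissue was checked on marker genes. All 10 neuronal markers, with Drd1 of striatal neurons among them, were above 0 in every rat, and so were all 16 genes of a list of general endothelial genes. Libraries held between 6701301 and 18817645 counts assigned to genes, so that 3 counts, taken as the floor of detection, stood at 0.159 to 0.448 CPM (counts scaled to a common library total). IS-HA replicate 2 was the smallest library. Its counts also leaned most toward short genes: relative to the mean of all rats, expression changed by -0.26 on the log2 scale for each doubling of gene length, against 0.06 and 0.05 in the other IS-HA rats, 0.14 and 0.24 in the Normal rats, -0.01 to 0.06 in the IC rats and -0.15 to -0.06 in the IS rats. Ocln and Tjp1 were 2.57 and 2.37 times as long as the median gene tested, and Abcb1a 1.41 times. Many results that rest on that library or change with a correction for gene length are given with both values. For some others the range over other settings is given.

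Promoter windows from RefSeq (build GRCr8, from 250 bases before to 50 bases after the annotated start) were matched by symbol for 7 of the 10 genes. Those of Abcb1a, Slc2a1 and Cav1 are shown because these genes changed between groups. Capitals mark the motifs searched on both strands, which were ACGTG (the core of hypoxia-inducible factor sites), GGGCGG (the GC box of Sp1), TATAAA (the TATA box), ATCAAAG (TCF/LEF) and AGGAAG (ETS), and no 2 of the marked motifs overlapped.
Abcb1a, chr4:26397599-26397898, minus strand: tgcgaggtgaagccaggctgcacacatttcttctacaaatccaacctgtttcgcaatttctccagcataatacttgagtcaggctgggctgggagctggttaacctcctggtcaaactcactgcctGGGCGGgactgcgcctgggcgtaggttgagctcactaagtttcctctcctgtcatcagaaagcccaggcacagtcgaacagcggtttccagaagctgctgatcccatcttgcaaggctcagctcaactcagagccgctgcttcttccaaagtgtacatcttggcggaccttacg
Slc2a1, chr5:138002272-138002571, plus strand: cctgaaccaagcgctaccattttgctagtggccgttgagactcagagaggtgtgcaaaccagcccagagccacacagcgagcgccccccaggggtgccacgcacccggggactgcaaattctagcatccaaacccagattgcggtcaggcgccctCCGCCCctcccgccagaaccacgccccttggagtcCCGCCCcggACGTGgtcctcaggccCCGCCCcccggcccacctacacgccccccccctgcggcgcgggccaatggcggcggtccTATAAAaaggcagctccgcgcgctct
Cav1, first start, chr4:46606288-46606587, plus strand: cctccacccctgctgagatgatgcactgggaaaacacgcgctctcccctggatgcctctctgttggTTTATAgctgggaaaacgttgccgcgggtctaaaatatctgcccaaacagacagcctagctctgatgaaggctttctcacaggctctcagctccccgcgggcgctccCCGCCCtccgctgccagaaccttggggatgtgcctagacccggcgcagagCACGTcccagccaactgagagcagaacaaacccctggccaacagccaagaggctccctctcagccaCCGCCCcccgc
Cav1, second start, chr4:46607722-46608021, plus strand: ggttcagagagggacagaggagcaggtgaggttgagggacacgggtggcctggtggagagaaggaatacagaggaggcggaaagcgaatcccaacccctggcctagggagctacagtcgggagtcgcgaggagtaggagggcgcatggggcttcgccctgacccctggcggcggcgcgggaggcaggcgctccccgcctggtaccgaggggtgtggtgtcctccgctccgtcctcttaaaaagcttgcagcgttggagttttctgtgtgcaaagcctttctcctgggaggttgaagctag
The Slc2a1 window held 1 ACGTG, 3 GC boxes and 1 TATA box. The first Cav1 window held 1 ACGTG, 2 GC boxes and 1 TATA box, whereas the second held none of the 5 motifs. The Abcb1a window held 1 GC box. Among 33469 rat promoter windows of the same length, 19.3% held ACGTG, 33.1% the GC box and 14.2% TATAAA, and a match describes letters, not a site.

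Levels of the genes were compared per length, as TPM (transcript counts divided by gene length and scaled to a common total), and are given as mean ± SD over the 11 rats. Slc2a1, the glucose transporter GLUT1, was highest at 195 ± 37.1 TPM, followed by Cldn5, the main claudin of brain capillaries, at 101 ± 28.9 TPM. Both lay above the next gene in all 11 rats. Cav1, the coat protein of caveolae, stood at 58.3 ± 17.3 TPM and Tjp1, the scaffold protein ZO-1, at 46.5 ± 15.7 TPM. Cav1 was above Tjp1 in 8 of the 11 rats, so that their order was not constant. Pecam1, an adhesion molecule of endothelial and blood cells, and Mfsd2a, the lysolipid transporter that restrains vesicle transport, lay at 24.6 ± 4.82 and 24.1 ± 3.52 TPM and could not be ordered, with Pecam1 above Mfsd2a in 5 rats. Cdh5, or VE-cadherin, followed at 14.1 ± 4.01 TPM and Abcb1a, the efflux pump P-glycoprotein, at 10.96 ± 4.98 TPM. Cdh5 was above Abcb1a in 7 of the 11 rats, so that their order was not constant either. Ocln, a membrane protein of tight junctions, stood at 5.78 ± 1.58 TPM. Plvap, which forms the diaphragms of leaky vessels and is nearly absent from mature barrier endothelium, was lowest in all 11 rats at 1.88 ± 0.785 TPM.

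The comparisons with Normal ask how hemorrhage of either severity, or severe hemorrhage with aspiration, moved these genes. Cav1 was higher in each hemorrhage group, while Pecam1 and Slc2a1 were higher and Abcb1a lower in IS. With edgeR's quasi-likelihood test and an adjusted p under 0.05, 1 of the 10 genes was called in IC against Normal, where 17.6% of all 15742 genes tested were called and 13% were called higher. In IS against Normal 4 genes were called, 3 higher and 1 lower, against a background of 49% of all genes, 24.8% higher and 24.2% lower. In IS-HA against Normal 1 gene was called, higher, against 31.5% of all genes and 19.5% higher. The total shares did not exceed the background. With a log2 fold change of at least 1 either way also required, 0, 1 and 0 members were called, and 13.6%, 35.8% and 22.8% of all genes. The rats of the 2 groups did not overlap for 4 of the 10 genes in IC against Normal, 8 in IS and 6 in IS-HA, beside 63.7%, 74.4% and 60.9% of all genes. The median log2 fold change of the 10 genes was 0.39 in IC, 0.65 in IS and 0.32 in IS-HA, beside medians of all genes of 0.0033, 0.018 and 0.056. The 3 comparisons share the 2 Normal rats.

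**Figure D1:**
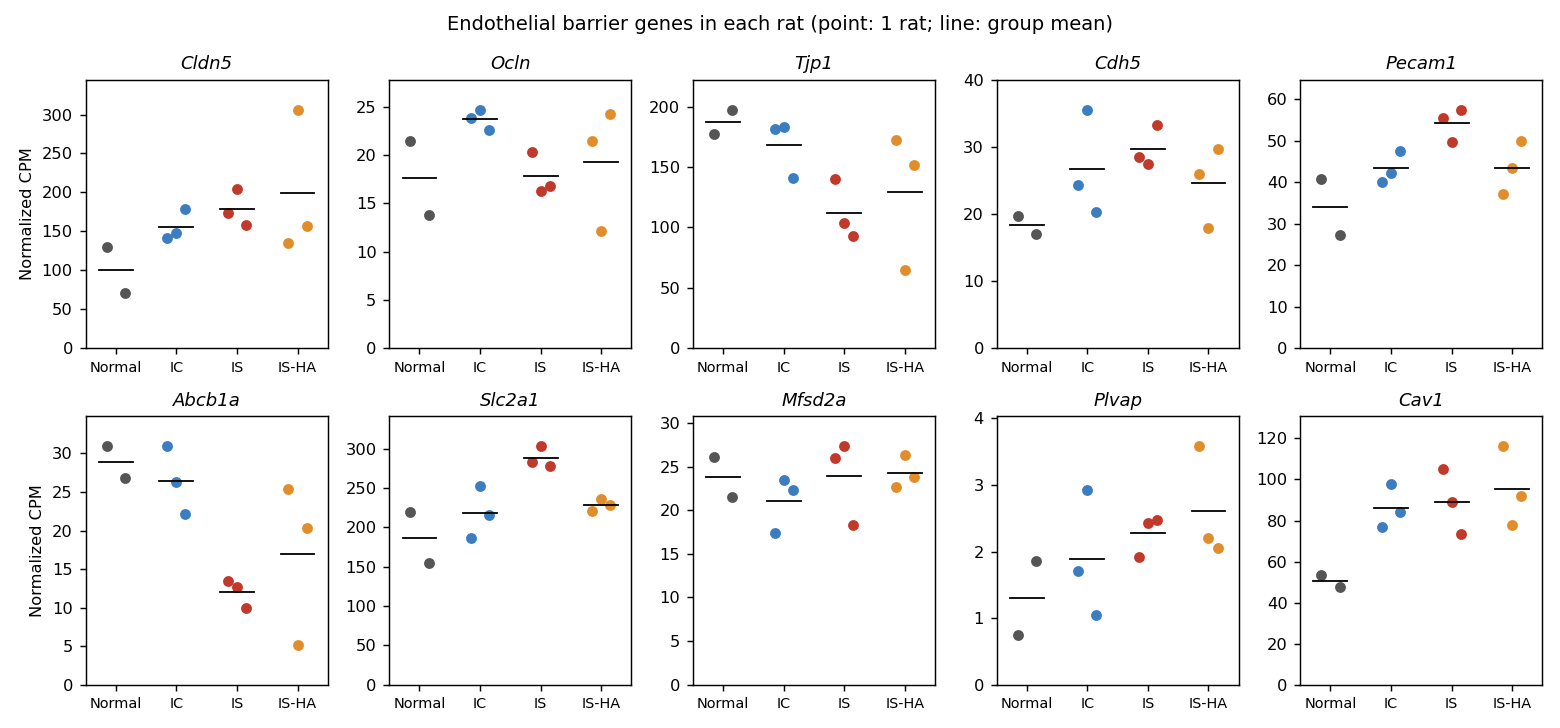
Normalized CPM of the 10 genes (y axis, from 0, with a scale of its own in each panel) in each rat of the 4 groups (x axis), where a point is 1 rat and a line the group mean. Cav1 lay higher in all 9 hemorrhage rats than in the Normal rats, and Abcb1a was lowest in the IS rats and in IS-HA replicate 2, at 5.2 CPM.

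Of the tight junction genes, none was called in any comparison by the main edgeR fit to all rats, before the alternatives given below. Cldn5 stood at 129.4 and 71.0 normalized CPM in the Normal rats, at 141.0, 148.1 and 178.2 in IC, at 173.8, 205.0 and 158.5 in IS, and at 134.4, 306.4 and 156.3 in IS-HA. All 9 hemorrhage rats lay above both Normal rats, and the Normal rats also lay apart from each other. The log2 fold change against Normal was 0.64 ± 0.35 (SE) in IC, 0.84 ± 0.36 in IS and 0.99 ± 0.36 in IS-HA, with edgeR's adjusted p of 0.225, 0.0713 and 0.0559. The IS-HA value rested partly on replicate 2, the highest of all rats, without which the log2 fold change was 0.54 (adjusted p = 0.146). With the same rat left out, Cldn5 in IS against Normal was called by edgeR at an adjusted p of 0.0125, and it was called without Normal replicate 1 in IS (1.33, adjusted p = 0.0403) and in IS-HA (1.48, adjusted p = 0.0491) and without IS-HA replicate 1 in IS-HA (1.21, adjusted p = 0.0263). Cldn5 was also called with library size alone in edgeR in IS (0.97, adjusted p = 0.0333) and IS-HA (1.09, adjusted p = 0.03) and by limma on log2(TPM + 1) in both (adjusted p = 0.0248 and 0.0251). It was called by edgeR fitted to the IS and Normal rats alone (0.83, adjusted p = 0.043), and by DESeq2's Wald test in IS-HA (0.96, adjusted p = 0.0324).

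Tjp1 went the other way. It stood at 177.6 and 197.6 CPM in the Normal rats, at 181.1, 183.2 and 140.6 in IC, at 139.8, 103.8 and 92.8 in IS, and at 172.5, 65.0 and 151.5 in IS-HA. All IS rats lay below all IC and Normal rats. Tjp1 is also expressed outside the endothelium, and the summed CPM of the 10 neuronal markers was 7929 to 8129 in the Normal rats, 2937 to 5697 in IC, 1616 to 3810 in IS and 2929 to 4106 in IS-HA, whose part in the Tjp1 values was not tested. The log2 fold change in IS against Normal was -0.74 ± 0.34 (edgeR's adjusted p = 0.0904), and without IS-HA replicate 2, which enters the shared estimate of the spread, the same change was called at an adjusted p of 0.00747. It was also called by edgeR fitted to the IS and Normal rats alone (adjusted p = 0.0234). After correcting for gene length, the value was -0.19 (edgeR's adjusted p = 0.527). In IS-HA against Normal the log2 fold change was -0.53 ± 0.34 (edgeR's adjusted p = 0.243). With 1 rat left out at a time, that value ranged from -0.79 to -0.21.

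Ocln stood at 21.5 and 13.8 CPM in the Normal rats, at 23.9, 24.7 and 22.6 in IC, at 20.4, 16.3 and 16.8 in IS, and at 21.5, 12.1 and 24.3 in IS-HA. The IC rats all lay above the Normal and the IS rats. The log2 fold change was 0.43 ± 0.29 in IC against Normal (edgeR's adjusted p = 0.315), and in IS and IS-HA the difference from Normal was smaller than its SE.

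Of the junctional adhesion genes, Cdh5 stood at 19.8 and 17.1 CPM in the Normal rats, at 24.4, 35.6 and 20.3 in IC, at 28.6, 27.5 and 33.3 in IS, and at 26.0, 18.0 and 29.8 in IS-HA. Its log2 fold change against Normal was 0.54 ± 0.28 in IC, 0.69 ± 0.28 in IS and 0.42 ± 0.28 in IS-HA, with edgeR's adjusted p of 0.187, 0.0586 and 0.252. The IS rats did not overlap the Normal rats. In IS the Cdh5 change was called by DESeq2's Wald test (adjusted p = 0.0399), by edgeR with library size alone (0.82, adjusted p = 0.0472) or with the IS and Normal rats alone (adjusted p = 0.0191), with the correction for gene length (0.93, edgeR's adjusted p = 0.0111), without IC replicate 3 (edgeR's adjusted p = 0.039) and without IS-HA replicate 2 (edgeR's adjusted p = 0.0236).

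Pecam1 stood at 40.8 and 27.3 CPM in the Normal rats, at 40.2, 42.2 and 47.6 in IC, at 55.5, 49.7 and 57.5 in IS, and at 37.3, 43.4 and 49.9 in IS-HA. The 3 IS rats were above every Normal and every IC rat. Pecam1 rose by 0.67 ± 0.21 on the log2 scale in IS against Normal, or 1.59-fold (edgeR's adjusted p = 0.0209). The call was lost without Normal replicate 3 (0.41, edgeR's adjusted p = 0.222) and without IS replicate 4 (0.63, edgeR's adjusted p = 0.0548). In IC and IS-HA the log2 fold change was 0.35 with an SE of 0.21 each and edgeR's adjusted p of 0.253 and 0.202. Pecam1 is also carried by platelets and leukocytes. The summed CPM of 11 microglia and macrophage markers was 277 to 358 in the Normal rats and 1675 to 2417 in the IS rats, and that of 7 neutrophil markers 4.36 to 5.04 and 164 to 221. The part of these cells in the Pecam1 change was not tested. Of 6 platelet markers, Gp1bb was at 0 in all 11 rats, Ppbp at 0 in 8 and Gp9 at 0 in 6. Pf4 stood at 0.72 CPM in Normal and 134 CPM in IS, Itga2b at 8.57 and 10.5 and Treml1 at 0.86 and 2.32. Of the 3 platelet markers tested, edgeR called 1 in IS against Normal. All 3 had a positive log2 fold change, with a list median of 1.38. The part of platelets in the Pecam1 change was not tested.

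Of the transporters, Abcb1a had the largest change of the 10 genes in IS against Normal. It stood at 30.9 and 26.8 CPM in the Normal rats, at 30.9, 26.3 and 22.1 in IC, at 13.5, 12.7 and 9.9 in IS, and at 25.4, 5.2 and 20.3 in IS-HA. All IS rats lay below every Normal and IC rat, and the IS-HA rats straddled them. Abcb1a fell by 1.26 on the log2 scale in IS against Normal, with an SE of 0.46, to 0.417 of the Normal level (edgeR's adjusted p = 0.0398). In IS-HA against Normal the log2 fold change was -0.74 ± 0.45 (edgeR's adjusted p = 0.22). With 1 rat left out at a time, that value ranged from -1.15 to -0.33. In IC the difference was smaller than its SE. The IS call was near the threshold. It was lost when any 1 of 9 rats was left out (each Normal, IC and IS rat and IS-HA replicate 3), with log2 fold changes of -1.36 to -1.14 and edgeR's adjusted p up to 0.143, and without IS-HA replicate 2 the adjusted p was 0.000402. With the correction for gene length the change was -1.01 (edgeR's adjusted p = 0.0551), with library size alone -1.13 (edgeR's adjusted p = 0.0773), and with limma on log2(TPM + 1) -1.16 (adjusted p = 0.101). Abcb1b, the close paralog of Abcb1a, went from a mean of 0.42 CPM in Normal to 1.97 in IS. Reads of the pair could be split or shared in counting, so that values of both are uncertain to that extent.

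Slc2a1 stood at 220.0 and 154.2 CPM in the Normal rats, at 186.2, 252.5 and 215.6 in IC, at 283.2, 303.2 and 278.4 in IS, and at 221.5, 236.0 and 228.8 in IS-HA. The IS rats lay above all other rats. Slc2a1 rose by 0.62 ± 0.20 on the log2 scale in IS against Normal, or 1.54-fold (edgeR's adjusted p = 0.0223). The call was lost without Normal replicate 3 (0.39, edgeR's adjusted p = 0.238) and without IS replicate 3 (0.60, edgeR's adjusted p = 0.0543). In IC and IS-HA the log2 fold change was 0.22 ± 0.19 and 0.29 ± 0.19 (edgeR's adjusted p = 0.446 and 0.263). Astrocytes also carry this transporter, and the summed CPM of 8 astrocyte markers was 4373 to 4505 in the Normal rats, 9434 to 12355 in IC, 5874 to 9571 in IS and 7566 to 9408 in IS-HA. Gfap, which rises in reactive astrocytes, made up most of this sum in the hemorrhage groups, with means of 612 CPM in Normal, 6548 in IC, 5452 in IS and 5299 in IS-HA. In IS against Normal 7 of the 8 markers had a negative log2 fold change, with a list median of -0.52, and edgeR called Gfap higher and Slc1a2, a glutamate transporter, lower. The part of astrocytes in the Slc2a1 change was not tested.

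Mfsd2a did not differ from Normal by more than its SE in any hemorrhage group. It stood at 26.1 and 21.6 CPM in the Normal rats, at 17.4, 23.4 and 22.3 in IC, at 26.0, 27.3 and 18.3 in IS, and at 22.7, 26.4 and 23.8 in IS-HA. The groups overlapped in each comparison with Normal.

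Of the vesicle genes, Cav1 stood at 53.7 and 47.6 CPM in the Normal rats, at 76.6, 97.8 and 84.0 in IC, at 105.3, 89.1 and 73.4 in IS, and at 116.2, 77.6 and 92.2 in IS-HA. All 9 hemorrhage rats lay above both Normal rats and the 3 hemorrhage groups overlapped. Cav1 rose by 0.77 ± 0.22 on the log2 scale in IC (1.70-fold, edgeR's adjusted p = 0.0351), by 0.82 ± 0.22 in IS (1.76-fold, edgeR's adjusted p = 0.0109) and by 0.91 ± 0.22 in IS-HA (1.88-fold, edgeR's adjusted p = 0.0109). Without Normal replicate 3 none of the 3 calls held (0.68, 0.73 and 0.83, edgeR's adjusted p = 0.26, 0.0979 and 0.111), and without Normal replicate 1 the IS call held and those in IC (adjusted p = 0.111) and IS-HA (adjusted p = 0.0504) did not. The IC call was also lost without IC replicate 3 (0.66, edgeR's adjusted p = 0.12), IC replicate 4 (0.78, 0.0798), IS replicate 3 (0.77, 0.0501) or IS-HA replicate 3 (0.76, 0.0523), and by limma on log2(TPM + 1) (0.80, adjusted p = 0.0849). Cav1 is expressed by smooth muscle and fibroblasts as well. The summed CPM of 11 pericyte and smooth muscle markers was 296 to 340 in the Normal rats, 526 to 795 in IC, 844 to 1091 in IS and 602 to 929 in IS-HA, and that of 6 fibroblast markers 163 to 182, 347 to 524, 427 to 656 and 274 to 491. Tagln and Anpep made up most of the rise in the pericyte and smooth muscle sum, from means of 30.1 and 4.85 CPM in Normal to 312 and 75.0 in IC, 542 and 168 in IS and 415 and 85.1 in IS-HA. Of the 11 markers, 6 had a negative log2 fold change in IC, 4 in IS and 6 in IS-HA, with list medians of -0.08, 0.41 and -0.12, and Rgs5, a pericyte marker, went from 60.9 CPM in Normal to 17.1 in IS. Of the 6 fibroblast markers, edgeR called 5 higher in each hemorrhage group, with list medians of 1.60, 2.12 and 1.59. None of these markers was at 0 in any rat, and their part in the Cav1 change was not tested.

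Plvap stood at 0.7 and 1.9 CPM in the Normal rats, at 1.7, 2.9 and 1.0 in IC, at 1.9, 2.4 and 2.5 in IS, and at 3.6, 2.2 and 2.0 in IS-HA. These values rest on 11 to 58 counts per rat. Its log2 fold change against Normal was 0.56 ± 0.51 in IC, 0.79 ± 0.52 in IS and 1.01 ± 0.52 in IS-HA (edgeR's adjusted p = 0.468, 0.227 and 0.15). Changes of this size in Plvap could not be told from the spread at this depth.

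**Figure D2:**
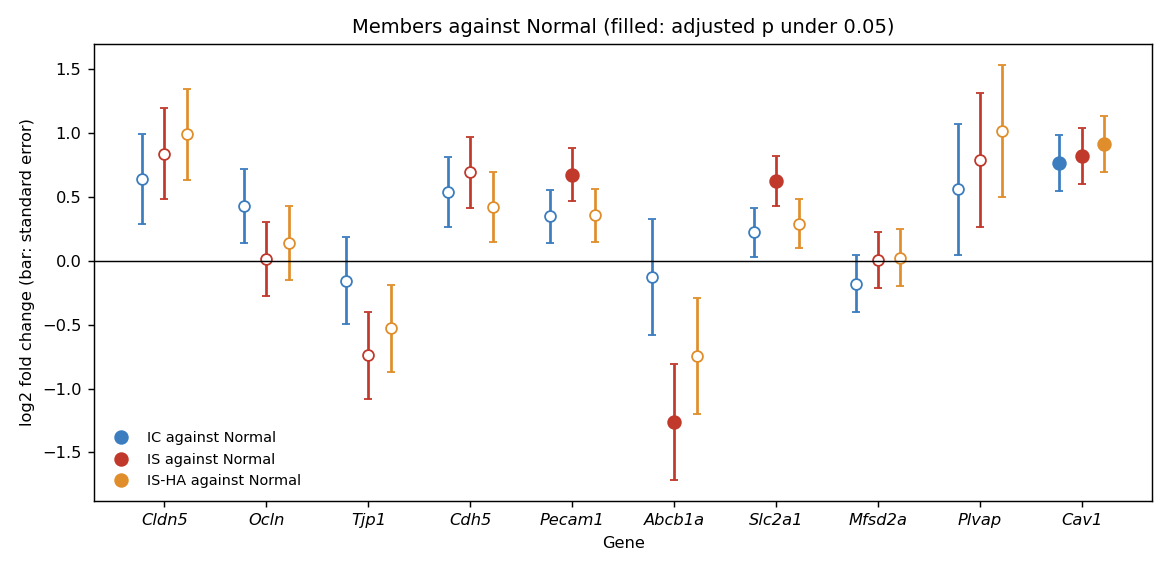
Log2 fold change against Normal (y axis) of the 10 genes (x axis) in IC, IS and IS-HA, with standard errors as bars and filled points for an adjusted p under 0.05. Cav1 was called in all 3 comparisons (0.77, 0.82 and 0.91), Pecam1 and Slc2a1 rose in IS (0.67 and 0.62), and Abcb1a fell in IS (-1.26).

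The direct comparisons of hemorrhage groups ask what severity and aspiration changed. No member was called in IS against IC, in IS-HA against IS or in IS-HA against IC by edgeR, where 0%, 0.00635% and 0% of all genes were called. At an unadjusted p under 0.05 the count was 2 of 10 in IS against IC, and 0 in both others, beside 22.2%, 8.94% and 4.97% of all genes. The 2 genes were Abcb1a (-1.13 ± 0.42, edgeR's unadjusted p = 0.0206 and adjusted p = 0.178) and Slc2a1 (0.40 ± 0.17, edgeR's unadjusted p = 0.0397 and adjusted p = 0.21). Tjp1 was -0.59 ± 0.31, Ocln -0.41 ± 0.26 and Pecam1 0.32 ± 0.18 in IS against IC, with edgeR's adjusted p of 0.274, 0.343 and 0.301. In all 5 of these genes the IS and the IC rats did not overlap, which held for 37.9% of all genes. Over the alternatives other than leaving out a rat, Tjp1 ranged from -0.65 to -0.30 and Ocln from -0.43 to -0.11. DESeq2's Wald test called 0 members in each of the 3 comparisons, beside 6.58% of all genes in IS against IC, 0.47% in IS-HA against IS and 0.139% in IS-HA against IC. Limma on log2(TPM + 1) called 0 members and 0% of all genes in each.

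In IS-HA against IS the log2 fold change was 0.52 ± 0.42 for Abcb1a, -0.33 ± 0.17 for Slc2a1, -0.32 ± 0.18 for Pecam1 and -0.27 ± 0.24 for Cdh5, with edgeR's adjusted p of 0.694, 0.569, 0.594 and 0.727. Slc2a1 was the 1 gene of the 10 in which the IS-HA and IS rats did not overlap, beside 10.4% of all genes. The Abcb1a values rested on IS-HA replicate 2. Without that rat Abcb1a was 0.92 higher in IS-HA than in IS on the log2 scale (edgeR's adjusted p = 0.041) and 1.13 lower in IS than in IC (edgeR's adjusted p = 0.0208). It was then the 1 member called in each of these comparisons. The share of all genes called without that rat was 4.37% in IS-HA against IS and 14.1% in IS against IC. That library was the smallest and the most tilted toward short genes, and it was not left out of the reported values. In IS-HA against IC the values of the 2 groups overlapped for all 10 genes, while they did not for 9.01% of all genes.

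The number of endothelial cells may differ between samples, so that each gene was also set against the general endothelial genes of the same rat. These were 16 genes such as Flt1, Kdr, Tek and Tie1, with a summed CPM of 294 to 375 in the Normal rats, 465 to 664 in IC, 631 to 954 in IS and 495 to 685 in IS-HA. The part of cells other than endothelium in these sums was not tested. The difference between a member's log2(CPM + 0.5) and the mean of the same quantity over the 16 genes was compared between the 9 hemorrhage rats and the 2 Normal rats by a two-sided exact permutation test, where 55 splits allow no p below 0.0364. In all, 10 such tests were made, and their p-values are unadjusted.

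Relative to the general endothelial genes, Abcb1a, Tjp1 and Mfsd2a were lower in each of the 9 hemorrhage rats than in both Normal rats. The difference on the log2 scale was -1.36 for Abcb1a, -1.09 for Tjp1 and -0.62 for Mfsd2a, each at the smallest p of the exact permutation test, 0.0364. The share of all genes that reach this p against the same reference was not computed. Nothing particular to these genes follows from it. For Abcb1a the log2 ratio was 0.88 and 1.00 in the Normal rats, 0.61, 0.08 and 0.20 in IC, -0.75, -0.86 and -1.50 in IS, and 0.41, -1.96 and -0.08 in IS-HA. For Tjp1 it was 3.38 and 3.85 in the Normal rats, 3.15, 2.86 and 2.84 in IC, 2.58, 2.12 and 1.66 in IS, and 3.15, 1.56 and 2.79 in IS-HA. For Mfsd2a it was 0.64 and 0.69 in the Normal rats and -0.65 to 0.28 in the 9 hemorrhage rats. The mean log2(CPM + 0.5) of the 16 reference genes was itself higher after hemorrhage. It was 4.10 and 3.78 in the Normal rats and 4.29 to 4.88 in the 9 hemorrhage rats. A gene whose own CPM stays level therefore falls in this ratio. Mfsd2a was close to level, with log2 fold changes against Normal of -0.18 in IC, 0.0046 in IS and 0.025 in IS-HA. With a correction for gene length, chosen after the data were seen, the differences of Abcb1a, Tjp1 and Mfsd2a were -1.26, -0.76 and -0.90, at the same exact p. With the median of the 16 genes in place of the mean, Mfsd2a was at -0.25 (exact permutation p = 0.509). Without either Normal rat, 10 splits remain and no p can be below 0.2.

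**Figure D3:**
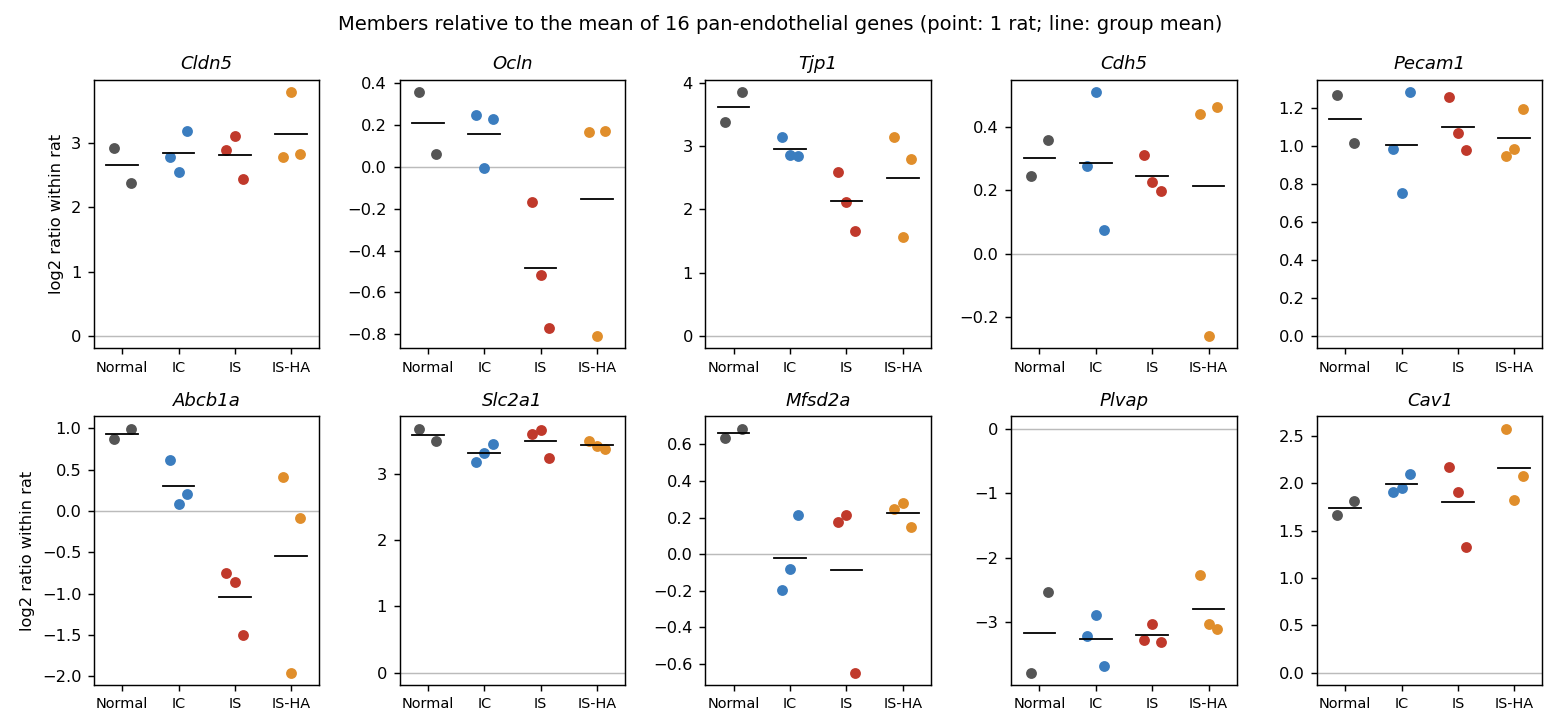
Log2 ratio within each rat of each gene to the mean of the 16 general endothelial genes (y axis, with a scale of its own in each panel) in the 4 groups (x axis), where a point is 1 rat, a line the group mean and the grey line a ratio of 0. Abcb1a, Tjp1 and Mfsd2a lay lower in all 9 hemorrhage rats than in both Normal rats, with differences of -1.36, -1.09 and -0.62. The mean of the 16 genes was itself higher in all 9 hemorrhage rats.

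The other members kept closer to the general endothelial genes. The difference between hemorrhage and Normal was 0.28 for Cldn5, 0.25 for Cav1, -0.37 for Ocln and -0.17 for Slc2a1 (exact permutation p = 0.4, 0.327, 0.255 and 0.182). It was between -0.09 and 0.07 for Pecam1, Cdh5 and Plvap (exact permutation p of 0.4 or more), with a sign that changed under other settings for all 3. With the median of the 16 genes Cav1 was at 0.61 and without IS replicate 4 at 0.33 (exact permutation p = 0.0364 and 0.0444), and the Slc2a1 ratio turned to 0.20. With the correction for gene length the Slc2a1 ratio was -0.34 (exact permutation p = 0.0364). Between IS and IC, the ratios of Abcb1a, Tjp1 and Ocln were lower in all 3 IS rats than in all 3 IC rats. They were lower by 1.33, 0.82 and 0.64 on the log2 scale, where 3 rats against 3 allow no exact permutation p below 0.1. The share of all genes so separated was not computed, so nothing particular to these genes follows. The reference mean of the 16 genes, on the same log2 scale, was 4.30 to 4.66 in IC and 4.55 to 4.88 in IS. A gene with level CPM falls where this mean rises. Tjp1 and Ocln are long, IS counts leaned more toward short genes than IC counts, and no length-corrected value is given for this comparison.

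The genes that work beside the members were read from fixed lists. Counts of called genes in each list stand beside 17.6% of all genes called by edgeR in IC against Normal and 31.5% in IS-HA. In IS, 24.8% of all genes were called higher and 24.2% lower. In IS against Normal, 24 genes of 6 lists are given by name, at most the 4 largest changes per list. Of these, 12 stayed called in each alternative tried, and 16 stayed called whichever rat was left out. Of the corresponding 13 genes in IC and 21 in IS-HA, 3 and 6 stayed called in each alternative, which were Apcdd1, Adm and Ehd4 in IC and these genes with Pard3, Angptl4 and Cavin3 in IS-HA. Of the other calls in IC and IS-HA that this rule named, each was lost in at least 1 alternative, and each was lost without Normal replicate 3. No gene of these lists was called by edgeR in the comparisons between hemorrhage groups.

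Tight junction partners moved in both directions. Of 13 tested in IS against Normal, 2 rose and 3 fell, beside 24.8% and 24.2% of all genes. The list median was -0.18, beside 0.018 for all genes. Pard3, a polarity scaffold bound to junctional adhesion molecules, fell by 1.54 on the log2 scale (SE 0.26, edgeR's adjusted p = 0.00107). Afdn, which links junctions to actin, and Cldn12, a claudin, fell by 1.31 and 1.11, and Esam, an endothelial adhesion molecule, rose by 1.11 (edgeR's adjusted p = 0.00235, 0.002 and 0.00746). With the correction for gene length, Pard3 was at -0.88 and Afdn at -0.66, both still called by edgeR (adjusted p = 0.00828 and 0.00748). Without Normal replicate 3 the Esam call was lost (0.77, edgeR's adjusted p = 0.0909). Pard3, Cldn12 and Afdn also fell in IS-HA, by 1.38, 1.02 and 0.91, where F11r, or JAM-A, rose by 0.88 (edgeR's adjusted p = 0.00348, 0.00556, 0.0226 and 0.0177). The Cldn12, Afdn and F11r calls in IS-HA were lost without Normal replicate 3 (edgeR's adjusted p = 0.0756, 0.199 and 0.183), and Afdn in IS-HA was at -0.47 with the correction for gene length (edgeR's adjusted p = 0.0483). In IC 1 of the 13, F11r, was called (0.80, edgeR's adjusted p = 0.0368), and it was lost when any 1 of 7 rats was left out.

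Of 9 adherens junction partners, 2 rose and 2 fell in IS against Normal, beside 24.8% and 24.2% of all genes. Ptprb, the phosphatase that binds VE-cadherin, fell by 1.10 on the log2 scale (edgeR's adjusted p = 0.00637), but was at -0.27 with the correction for gene length (edgeR's adjusted p = 0.269). Ctnna1, alpha-catenin, rose by 0.60 (edgeR's adjusted p = 0.0116), lost without Normal replicate 3 (edgeR's adjusted p = 0.135). It was the 1 call of the list in IC (0.54), lost when any 1 of 9 rats was left out, and Ptprb that in IS-HA (-0.90), lost without either Normal rat and at -0.32 with the correction for gene length. Nectin2 (0.86) and Jup (-0.45) were called at an adjusted p of 0.0474 and 0.0394 by edgeR and lost under 9 and 14 of 21 alternatives.

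Of 16 general endothelial genes, 7 rose and 1 fell in IS against Normal, beside 24.8% and 24.2% of all genes, and 8 did not pass the test. The list median was 0.41. Eng, the endothelial coreceptor of the TGF-beta family, rose by 2.39 ± 0.46, Sox7, an endothelial transcription factor, by 2.33 ± 0.50, Tie1, a receptor kinase, by 1.91 ± 0.29 and Vwf, von Willebrand factor, by 1.78 ± 0.31 (edgeR's adjusted p = 0.00203, 0.00339, 0.000538 and 0.00108). The gene that fell was Flt1, the VEGF receptor 1 (-0.58, edgeR's adjusted p = 0.0163), named after its value was seen and not followed through the alternatives. In IC 2 of the 16 were called, Tie1 (1.39) and Vwf (1.25). In IS-HA 4 rose, Sox7 (1.79), Eng (1.68), Vwf (1.56) and Tie1 (1.23), and Flt1 fell (-0.60). The Sox7 and Eng calls in IS-HA were lost without either Normal rat. Thus the reference genes of the ratios above did not move alike.

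Other barrier transporters were split. In IS 4 of 16 rose and 5 fell, beside 24.8% and 24.2% of all genes, with a median of 0.16. Slco1c1, which carries thyroid hormone, and Slc22a8, an organic anion transporter, fell by 1.84 and 1.64 (edgeR's adjusted p = 0.000891 and 0.0139). Slc38a5, a glutamine transporter, rose by 1.64 and Abcb1b by 2.19 (edgeR's adjusted p = 0.00415 and 0.00861). Without Normal replicate 3 the Slc22a8 and Abcb1b calls were lost (edgeR's adjusted p = 0.0589 and 0.0816), and the Slc22a8 call also without Normal replicate 1 (edgeR's adjusted p = 0.0576). By limma on log2(TPM + 1), a scale that understates changes of low genes, Abcb1b was at 0.60 in IS (adjusted p = 0.0452) and 0.41 in IS-HA (adjusted p = 0.173). In IS-HA 4 rose and 2 fell, among them Slc22a8 (-1.77), Abcb1b (1.70), Slc38a5 (1.38) and Slco1c1 (-1.22), all lost without Normal replicate 1 as well as without Normal replicate 3. Abcb1b in IS-HA was also lost without IC replicate 4, IS-HA replicate 1 or IS-HA replicate 3. In IC 3 rose, Slc38a5 (1.52), Slco2b1 (0.89) and Slc3a2 (0.66). Without Normal replicate 1 the Slc38a5 and Slc3a2 calls in IC were lost, and without IC replicate 3 that of Slc3a2.

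Wnt signaling from neural cells induces and maintains the barrier in endothelium. Of 15 genes of this programme tested, 5 rose and 3 fell in IS, beside 24.8% and 24.2% of all genes, with a median of 0.26. Lrp6, a Wnt coreceptor, fell by 2.49, Axin2, a feedback target of the pathway, by 1.56 and Fzd4, a Wnt receptor, by 1.07, whereas Apcdd1, another target and inhibitor, rose by 1.29 (edgeR's adjusted p = 0.00173, 0.0077, 0.0185 and 0.000144). These genes are expressed by many cells of the striatum. Without Normal replicate 3 the Axin2 and Fzd4 calls were lost (edgeR's adjusted p = 0.0526 and 0.0809), and that of Fzd4 also without Normal replicate 1 or IS replicate 4 (edgeR's adjusted p = 0.0738 and 0.0599). Apcdd1 also rose in IC (1.26) and IS-HA (1.00), in each alternative tried. In IC 1 more of the 15 was called, Ppard, a nuclear receptor (0.53), lost when any 1 of 8 rats was left out. In IS-HA 4 rose and 3 fell, among them Lrp6 (-1.48), Axin2 (-1.27) and Wnt7b, a ligand (0.88), each lost without either Normal rat.

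Caveolar and permeability genes were called higher in IS in 6 of 11 and lower in none, beside 24.8% and 24.2% of all genes. The list median was 1.11, and 2 of the genes had a negative log2 fold change. Adm, adrenomedullin, rose by 5.37 ± 0.63 on the log2 scale, from a mean of 1.12 CPM in Normal to 46.6 in IS (edgeR's adjusted p = 0.000129). Angptl4, a secreted protein that affects vessel permeability, rose by 3.68, Cavin3, a coat protein of caveolae, by 2.55 and Ehd4, a membrane trafficking ATPase, by 2.43 (edgeR's adjusted p = 0.00032, 0.000411 and 4.36e-05). The caveolar genes of the list did not all move as Cavin3 did. Cav2 went from a mean of 27.9 CPM in Normal to 30.3 in IS, Cavin1 from 4.68 to 6.37 and Cavin2 from 13.7 to 10.6. These genes were named after their values were seen. In IC 5 of the 11 listed genes rose and in IS-HA 5 rose and 1 fell. Adm rose by 4.13 in IC and 4.21 in IS-HA and Ehd4 by 1.66 and 1.88, and these calls held in each alternative tried. Angptl4 (2.33) and Angpt2, an antagonist of the receptor Tie2 (1.62), rose in IC, Angpt2 being lost without IC replicate 3 and at 2.43 without Normal replicate 1, and Angptl4 (3.04) and Cavin3 (2.09) rose in IS-HA. The 3 comparisons share the Normal rats, as they do for Cav1.

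**Figure D4:**
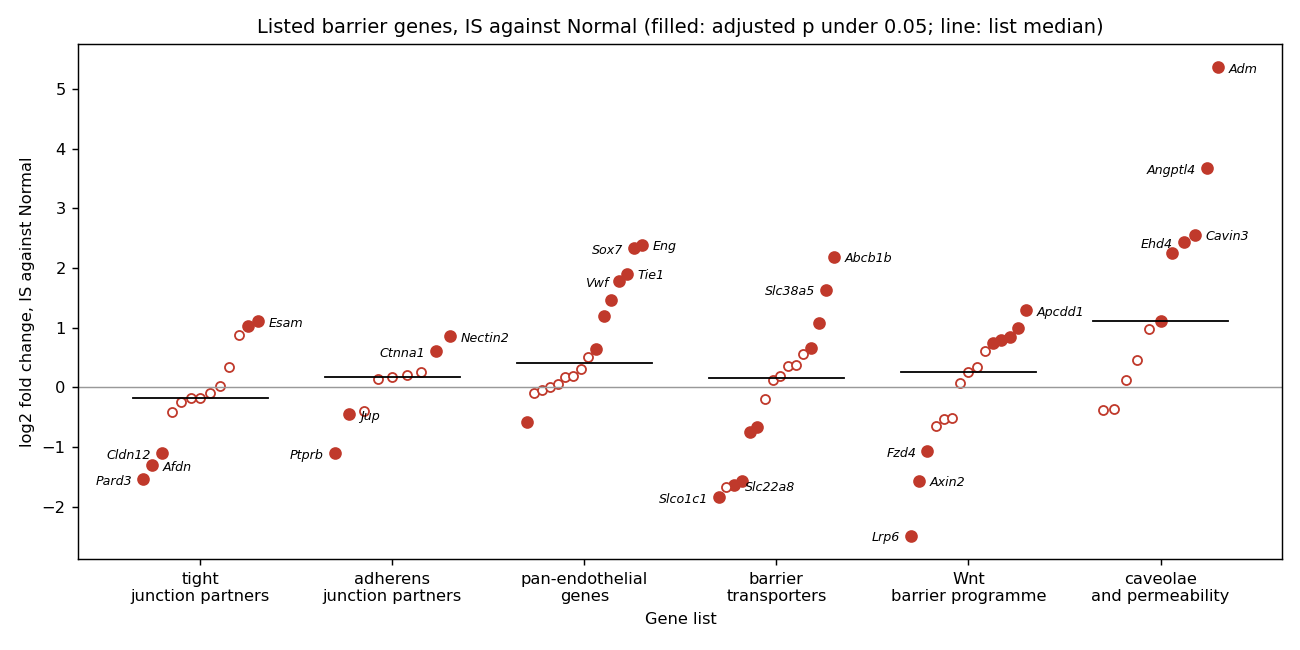
Log2 fold change in IS against Normal (y axis) of the genes tested in 6 lists (x axis), where filled points have an adjusted p under 0.05, lines are list medians and the labelled genes are the at most 4 largest changes called per list. The caveolae and permeability list had the highest median (1.11) and Adm the largest change (5.37).

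The genes whose profile over the 11 rats was most like that of Cldn5 were Rabep2, Gstk1, Fdxr, Thnsl2 and Il11ra1, with a root mean square difference of the centered log2 CPM of 0.135, 0.138, 0.139, 0.143 and 0.145, among 14842 genes compared. For Plvap they were Slc22a21, Taf1d, Abo, Gmps and Blm, at 0.252, 0.256, 0.258, 0.261 and 0.277. None of these is a member or a listed endothelial gene, and with 2 to 3 rats a group such closeness describes these libraries.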

How the data were processed

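RNA-seq of striatum was measured in 11 rats, on the ipsilateral side in the injected rats. Poly(A) libraries were made with a stranded kit and sequenced as 150-base paired ends. The authors deposited raw counts of reads for each gene. They deposited TPM beside them, in which counts are divided by gene length and each rat scaled to one sum. The submitters' processing notes name fastp 0.20.0, HISAT2 2.1.0, SAMtools 1.9, featureCounts and the build mRatBN7.2.

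Counts were normalized by TMM, filtered by filterByExpr and tested with the quasi-likelihood F test of edgeR 4.0.16 (R 4.3.3) fitted once to all 4 groups, adjusting p over 15742 genes by Benjamini-Hochberg, with a common dispersion of 0.0691. A call needed an adjusted p under 0.05, and SE was the log2 fold change over the square root of F. Floors cover counting error only, as PCR copies were not marked. Nothing states separate cohorts, and p-values measure the spread between these rats. Rats sharing a replicate number are different animals, and their deviations did not correlate in common (same-number means -0.302 to 0.0311), so no block was used. Members and lists were chosen with earlier results of these data known, and 1 listed gene is not reported here. Named besides the 10 members are at most 4 called genes per list and comparison, with the largest absolute log2 fold change, and the 5 genes with profiles nearest to Cldn5 and Plvap. Alternatives were other scalings, DESeq2 1.42.0, limma 3.58.1 on log2(TPM + 1), other filters, a fold cutoff, a fit to the compared groups alone, leaving out each rat, the replicate block, scaling without hemoglobin and mitochondrial genes and a correction for gene length (from counts over TPM). The procedures were tested on simulated data. Plots were drawn with matplotlib 3.10.9.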

Additional observations from a re-analysis of the deposited data

How the results depend on the processing

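Normal had 2 rats, so that calls against it were sensitive to either. Leaving out each rat in turn gave 0 to 1 members called in IC against Normal (1 with all rats), 0 to 7 in IS against Normal (4), 0 to 2 in IS-HA against Normal (1), 0 to 1 in IS against IC and in IS-HA against IS (0 each) and 0 to 4 members differing from the general endothelial genes (3). In IS against Normal the count was lowest without Normal replicate 3, which leaves 1 Normal rat. It was 2 without IS replicate 3 or 4, beside 41.3% and 37.7% of all genes. Without IS-HA replicate 2 it was 7, beside 59.5% of all genes. With a log2 fold change of at least 1 required, 0, 1 and 0 members were called in IC, IS and IS-HA against Normal. With only the groups compared in the fit the counts were 7 in IS and 0 in IS-HA, beside 53.5% and 15.4% of all genes. Limma on log2(TPM + 1) gave 0 members in IC, beside 14.9% of all genes. Limma, library size alone and DESeq2's Wald test gave 2 in IS-HA, beside 26.1%, 31.2% and 38.5% of all genes. The cause of these changes was not tested. With the replicate block 0 members were called in IC and 1 in IS, Cav1, beside 5.33% and 17.7% of all genes. In that setting Abcb1a in IS was at -0.59 (edgeR's adjusted p = 0.471), and Abcb1a in IS-HA against IS turned to -0.0589. Rats sharing a number share nothing else in the labels.

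Differences that changed sign were all below the threshold. Slc2a1 in IC against Normal ranged from -0.0149 to 0.50 over the rats left out, lowest without Normal replicate 3, and Cldn5 in IS-HA against IC from -0.10 to 0.57, lowest without IS-HA replicate 2. Relative to the general endothelial genes, the median in place of the mean gave 0.32 for Cdh5, 0.28 for Pecam1 and 0.20 for Slc2a1, log2(TPM + 1) gave -0.0597 for Plvap, and the correction for gene length gave 0.0277 for Cdh5 and -0.13 for Plvap. With rats left out these ratios ranged from -0.11 to 0.0109 for Cdh5, from -0.22 to 0.0340 for Pecam1 and from -0.55 to 0.69 for Plvap. Abcb1b gave no value under the filter of 10 counts in every rat. Library size alone raised the median of all genes against Normal by 0.13 to 0.14 on the log2 scale.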

Other observations

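Cav1 and Mfsd2a mark opposite sides of vesicle transport, and their TPM ratio within a rat was looked at after the values were seen, as a description with no test. It was 1.38 and 1.48 in the Normal rats, 2.95, 2.79 and 2.52 in IC, 2.72, 2.18 and 2.68 in IS, and 3.43, 1.97 and 2.59 in IS-HA. All 9 hemorrhage rats lay above both Normal rats, and the 3 hemorrhage groups overlapped. Cav1 was called against Normal in each group, and Mfsd2a in none.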
